A study of Arabidopsis thaliana with 12 samples.

Results

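The 2 single mutants sdg8 and hub2 of Arabidopsis thaliana were compared directly, as 3 arrays titled as sdg8 seedlings against 3 titled as hub2 seedlings, out of 12 arrays in the series. The members were taken by their titles, and no measured value entered the choice. Each array holds RNA of whole seedlings, 6 days old, kept at 22 °C under a day of 16 h light and 8 h dark. Both mutants and the 3 wild-type arrays used as a reference point are labelled as ecotype Columbia. The labels give the genotypes as sdg8 and hub2 without naming an allele, and describe the arrays of a group as biological replicates, which the series' design text says were grown independently. The double mutant sdg8hub2 makes up the other 3 arrays and enters here through the shared estimate of the spread.

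SDG8 encodes a histone methyltransferase that adds methyl groups to lysines of histone H3 over the body of transcribed genes. HUB2 encodes a RING-type ligase which, together with HUB1, attaches a single ubiquitin to histone H2B, also on transcribed genes. Both marks accompany elongating RNA polymerase II, and both proteins are known as regulators of flowering and of defence gene expression in this plant. Setting one single mutant against the other asks which transcripts respond differently to the loss of these activities.

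Values are log2 of the deposited MAS5 signal throughout, and a difference is sdg8 minus hub2 unless stated otherwise. The probe sets of SDG8 and HUB2 are unnamed in the annotation used here, so the lesions themselves were not checked on the arrays. Photosynthetic genes were bright in every array (RCA, the Rubisco activase gene, had a mean log2 signal of 14.83 in sdg8 and 14.65 in hub2), and root-expressed peroxidase genes were detected in both mutants. Among the hub2 arrays, replicate 2 had a 3' minus 5' difference of 2.06 in 1 pair of actin controls, the pair used as a covariate below. It was 1.29 and 1.31 in replicates 1 and 3 and 1.21 to 1.24 in sdg8. A second actin pair read 2.08, 3.77 and 3.26 in hub2 and 3.44, 3.67 and 2.66 in sdg8. The 2 GAPDH pairs read 0.27 and 1.66 in hub2 replicate 2, against -0.06 and 0.7 in replicate 1 and -0.1 and 0.58 in replicate 3. The sdg8 arrays scattered more around their group mean (root mean square deviation of 0.41 to 0.46) than the hub2 arrays (0.36 to 0.37), and sdg8 replicate 1 correlated more closely with the other groups than sdg8 replicates 2 and 3 did.

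Of 18196 probe sets tested, 2925 differed between sdg8 and hub2, or 16.1% (limma, Benjamini-Hochberg adjusted p under 0.05, "called" in what follows). Of these, 1336 were higher in sdg8 (7.34% of those tested) and 1589 lower (8.73%). For comparison, 14.3% were called in sdg8 against wild type and 2.85% in hub2 against wild type, comparisons that share the wild-type arrays with each other. A difference in tissue RNA of this kind cannot tell fewer cells of a type apart from less RNA per cell. Most called differences were small: 2413 of the 2925 were below 2-fold, and the median absolute log2 difference among called probe sets was 0.57.

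Large differences were mostly lower in sdg8. Of the 512 called probe sets that differed by at least 2-fold, 390 were lower in sdg8 (2.14% of those tested) and 122 higher (0.67%), so that 23.8% were higher in sdg8. At 4-fold or more, 105 were lower and 23 higher. The excess of lower values was present above the median signal level (104 lower and 51 higher at 2-fold) and below it (286 lower and 71 higher). The share of higher among 2-fold differences stayed between 18.5% and 30.1% over 21 alternative settings, while the share among all called probe sets, 45.7%, turned to 54.8% when arrays were centred on their medians. With 64 intensity units added before taking logs, 2-fold calls numbered 128 lower and 44 higher, and 4-fold calls 8 lower and 6 higher. With only replicate 1 kept in sdg8, 1203 probe sets were called, and without hub2 replicate 2, 2572 were called.

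**Figure D1:**
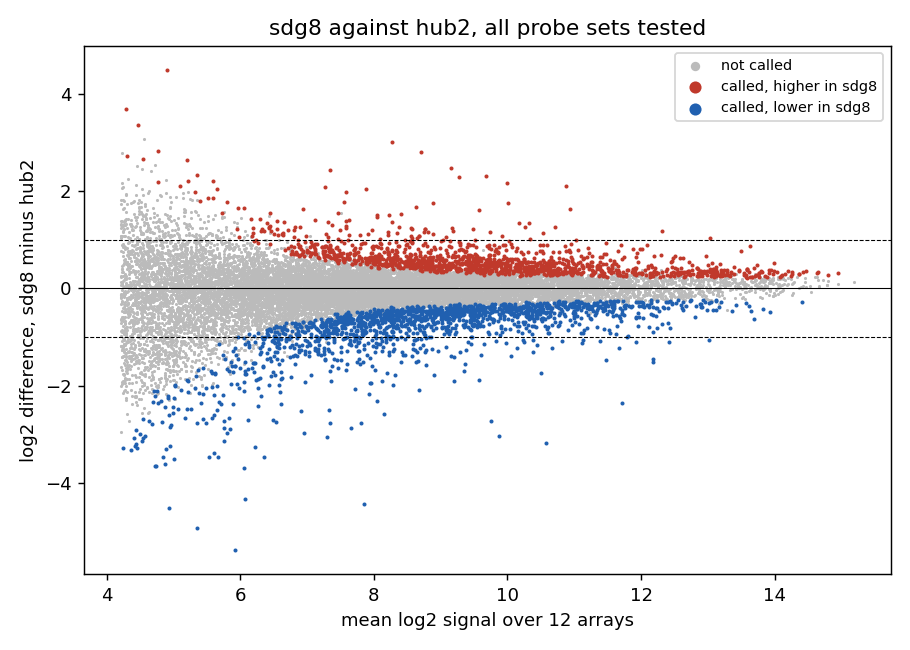
Each point is 1 probe set, plotted by its mean log2 signal over 12 arrays (horizontal) and its log2 difference, sdg8 minus hub2 (vertical). Dashed lines mark 2-fold. Red points (1336) were called higher in sdg8 and blue points (1589) called lower, and beyond the dashed lines blue points outnumber red ones.

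The difference with the largest positive value among the genes selected for size and signal was that of BHLH101, which encodes a transcription factor of the iron deficiency response. Its log2 signal was 9.80, 10.18 and 9.89 in the 3 sdg8 arrays, 7.03, 6.70 and 7.10 in hub2, with wild type at 7.69, 7.21 and 7.65. Every sdg8 array lay above every wild-type array, and every hub2 array below them. The difference of 3.01 (SE 0.16) is 8.07-fold, with an adjusted p of 4.76e-11. AT1G47400 encodes a small peptide of the IRON MAN family that promotes iron uptake. It read 11.98, 11.98 and 11.81 in sdg8, 9.86, 9.89 and 9.73 in hub2, with wild type at 10.61, 10.26 and 10.61. Its groups were again fully separated, in the same order, with a difference of 2.10 (SE 0.10, adjusted p = 5.09e-12). AT5G05250, a gene of unknown function on the iron deficiency list, read 10.86, 10.76 and 10.93 in sdg8 and 8.75, 8.66 and 8.20 in hub2, a difference of 2.31.

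The iron deficiency list was written with 36 genes, of which 9 had a named probe set and were tested. Of these 9, 5 were higher in sdg8 (7.34% over all probe sets tested), 1 was lower and 3 were not called. Their median log2 difference was 1.19, against -0.023 over all probe sets tested. This list, like every gene list here, was written with earlier results of these arrays known, so its counts and direction are no independent evidence. The other 2 genes higher in sdg8 were PYE, a transcription factor gene of the same response, at 1.23 (SE 0.14), and AT3G13610 at 1.19 (SE 0.12). AT3G13610 encodes an enzyme of the synthesis of coumarins, which roots release to mobilise iron. AT3G07720 was the 1 lower member, at -0.32, and lost its call in most alternative settings. The genes for the BRUTUS-LIKE ubiquitin ligases AT1G74770 and AT1G18910 had differences of 0.52 and -0.25 and were not called, nor was the coumarin-modifying AT3G12900 at -0.36.

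Genes of the mitochondrial stress response formed the other large group above hub2. AT5G09570 encodes a small cysteine-rich mitochondrial protein. Its log2 signal was 9.28, 9.68 and 9.62 in sdg8 and 7.09, 6.73 and 6.35 in hub2, a difference of 2.81 (SE 0.16, adjusted p = 9.16e-11). AT2G21640, whose mitochondrial product marks oxidative stress, read 9.98 to 10.08 in the 3 sdg8 arrays and 7.58, 7.92 and 7.70 in hub2, a 4.88-fold difference. For both genes the hub2 arrays overlapped those of wild type, and hub2 was not called against wild type (adjusted p = 0.353 and 0.236). AT5G51440 encodes a mitochondrial small heat shock protein. It read 8.72, 9.03 and 9.17 in sdg8, 7.0, 7.89 and 7.49 in hub2, with wild type at 6.71, 6.27 and 6.28, so that both mutants lay above wild type and sdg8 higher still. The stress gene AT2G41730 had the same order, with group means of 11.44, 9.81 and 9.27 in sdg8, hub2 and wild type. Affymetrix marks its probe set (x_at) as open to cross-hybridisation.

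The mitochondrial stress list was written with 32 genes, of which 17 had a named probe set and were tested. Of these 17, 9 were higher in sdg8, where 7.34% of all tested probe sets were, 1 was lower and 7 were not called. Their median log2 difference was 1.34. Further called members were the MATE-type transporter gene AT2G04050 at 1.23, AT1G24095 at 1.55, AT2G03130 at 1.77, AT5G40690 at 0.77 and AT5G43450 at 0.66. AT2G03130 (SE 0.44) had means of 4.45 in hub2 and 4.04 in wild type, near the background filter at 4.21. The alternative NAD(P)H dehydrogenase genes, whose enzymes bypass complex I, were not called: NDB4 stood at 1.34 (SE 0.53), NDB1 at 0.12 and NDB2 at 0.09. The lower member, AT2G32190, a CYSTM-type stress peptide gene, had a difference of -2.71 (SE 0.41). This list too was written with earlier results of these arrays known, so its direction is no independent evidence. The same holds for the lists that follow.

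Late anthocyanin genes were also higher in sdg8. DFR, which encodes dihydroflavonol reductase, read 9.78, 9.99 and 10.29 in sdg8, 8.33, 8.20 and 8.25 in hub2, with wild type at 8.45, 8.63 and 8.67. All sdg8 arrays were above those of the other groups, and all hub2 arrays were below wild type, with a difference of 1.76 (SE 0.13). Against wild type, hub2 was not called for DFR (-0.32, adjusted p = 0.233). The glycosyltransferase genes AT4G14090 and UF3GT, whose products add sugars to anthocyanins, differed by 1.63 and 1.30, and the anthocyanin malonyltransferase gene AT5MAT by 1.35. CHIL, which encodes a helper protein related to chalcone isomerase, differed by 0.88. For AT4G14090, UF3GT and CHIL too, hub2 was not called against wild type (adjusted p = 0.325, 0.345 and 0.544). Of 24 genes written for the flavonoid and anthocyanin list, 8 had a named probe set and were tested. The 5 genes given above were higher in sdg8 (7.34% over all). UGT78D2, a flavonoid 3-O-glucosyltransferase gene, was lower at -0.45, and 2 were not called. UGT78D2 lost its call without hub2 replicate 2, without sdg8 replicate 3, and with only replicate 1 kept in sdg8.

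2 genes of the CAP superfamily, to which the pathogenesis-related protein PR-1 belongs, stood far apart between the mutants. PR-1-LIKE read 8.43, 8.59 and 8.47 in sdg8, 6.16, 5.86 and 6.18 in hub2, with wild type at 7.28, 7.21 and 7.33, a difference of 2.43 (SE 0.17). AT2G19970 read 11.42, 11.08 and 11.44 in sdg8, 9.14, 9.20 and 9.09 in hub2, with wild type at 10.24, 9.83 and 9.68, a difference of 2.17 (SE 0.13). In both genes wild type lay between the mutants without overlap, and each mutant was called against wild type. Other genes among the 14 highest were AT1G43590 at 2.08, the pectin lyase-like gene AT5G14650 at 1.97, and AT5G55450, a lipid transfer protein gene, at 1.53. For AT5G55450 sdg8 was not called against wild type (0.46, adjusted p = 0.0968) while hub2 was (-1.06, adjusted p = 0.00158).

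**Figure D2:**
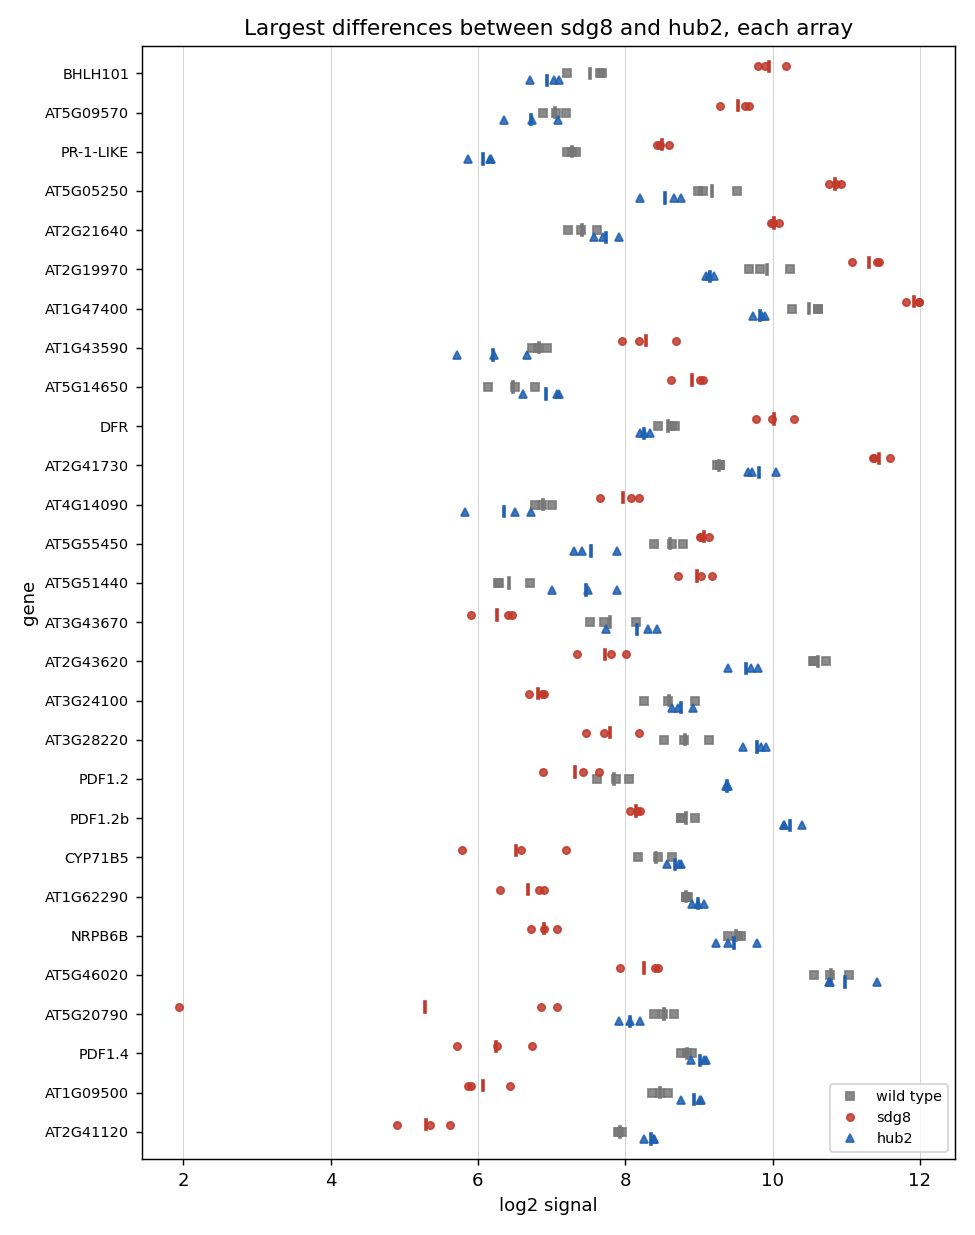
Log2 signal (horizontal) in each array for the 14 highest and 14 lowest differences by the selection rule, ordered from 3.01 for BHLH101 to -3.06 for AT2G41120. Each symbol is 1 array of wild type (grey squares), sdg8 (red circles) or hub2 (blue triangles), and bars mark the group means of 3 arrays. Red and blue symbols do not overlap for any of the 28 genes, as the rule required (30.5% of tested probe sets have no such overlap), and 1 sdg8 array of AT5G20790 lies far below the other 2.

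At the other end, plant defensin genes were lower in sdg8 than in hub2. Defensins are small secreted antifungal peptides, and PDF1.2 is a standard marker of the jasmonate and ethylene response. PDF1.2 read 7.64, 7.42 and 6.88 in sdg8, 9.36, 9.38 and 9.39 in hub2, with wild type at 8.05, 7.61 and 7.87. The sdg8 arrays overlapped wild type and the hub2 arrays lay above both, with a difference of -2.07 (SE 0.19, adjusted p = 1.2e-07). PDF1.2b, on a probe set also marked x_at, read 8.20, 8.16 and 8.06 in sdg8 and 10.40, 10.16 and 10.16 in hub2, a 4.29-fold difference. PDF1.4 differed most, at -2.78 (SE 0.21), but by another route. It read 6.74, 5.72 and 6.26 in sdg8, 9.10, 9.07 and 8.89 in hub2, with wild type at 8.84, 8.76 and 8.90, so hub2 stayed near wild type (0.19, adjusted p = 0.753) and sdg8 lay below both. The 1 other tested member of the jasmonate and ethylene list, the thionin gene THI2.1, was not called, with a 95% interval of -0.97 to 2.35.

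Several single genes were lower in sdg8 than in hub2, and hub2 was not called against wild type. AT2G41120 read 5.62, 4.90 and 5.35 in sdg8, 8.39, 8.25 and 8.39 in hub2, with wild type at 7.90, 7.95 and 7.92, an 8.31-fold difference (SE 0.19 on the log2 scale, adjusted p = 3.25e-10). AT1G09500, of the cinnamyl alcohol dehydrogenase type, read 6.44, 5.91 and 5.86 in sdg8 and 8.75, 9.01 and 9.03 in hub2, a 7.27-fold difference. NRPB6B, 1 of 2 genes for a small subunit of RNA polymerase, read 7.07, 6.72 and 6.90 in sdg8, 9.40, 9.79 and 9.23 in hub2, with wild type at 9.39, 9.57 and 9.53. The hub2 and wild-type arrays of NRPB6B overlapped, and its difference was -2.58 (SE 0.20). The other gene for this subunit, NRPB6A, was not called (-0.25, adjusted p = 0.25). AT5G46020 differed by -2.73 and the aspartic protease gene AT1G62290 by -2.31. AT3G24100 differed by -1.94 and the copper amine oxidase gene AT3G43670 by -1.90. AT3G28220, a TRAF-like gene, differed by -2.0, and here hub2 was called above wild type (0.97, adjusted p = 0.011).

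A peroxidase gene and a pair of chitinase-type genes were lower than wild type in both mutants, and lower in sdg8 than in hub2. AT2G43620, of the chitinase family, read 8.01, 7.80 and 7.35 in sdg8, 9.71, 9.40 and 9.80 in hub2, with wild type at 10.56, 10.55 and 10.72. The peroxidase gene AT5G39580 read 8.19, 8.23 and 7.94 in sdg8, 9.30, 9.42 and 9.56 in hub2, with wild type at 10.70, 10.75 and 10.83. In both genes the 3 groups were separated without overlap, and the differences were -1.92 (SE 0.15) and -1.30 (SE 0.11). CHI, annotated as a chitinase, had means of 5.69, 6.88 and 7.88 in the same order, and lost its call, at -0.68, with only replicate 1 kept in sdg8. The other tested gene of the chitinase list, ChiC, went the other way, at 0.45 (adjusted p = 0.0488). Its sdg8 mean was 0.70 above wild type (adjusted p = 0.00309), and its call between the mutants was lost in most alternatives.

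Of 16 tested cytochrome P450 genes, a family of oxidising enzymes, 6 were lower in sdg8 (8.73% over all probe sets tested) and 0 were higher. The other 10 were not called, and the median log2 difference was -0.71. All tested members except CYP84A4 and CYP78A9 are of the CYP71B subfamily, so the count does not describe the P450 family at large. CYP71B5 read 5.78, 7.19 and 6.58 in sdg8 and 8.75, 8.56 and 8.73 in hub2, a difference of -2.16 (SE 0.23). CYP71B36 had the largest difference of the list, -4.52, but its sdg8 values of 4.60, 0.48 and 1.67 are near background, and it shrank to -1.25 once 64 intensity units were added. With only replicate 1 kept in sdg8 its difference was -2.16. The called count fell to 3 without sdg8 replicate 1, sdg8 replicate 2, hub2 replicate 1 or hub2 replicate 2, each left out singly, with only replicate 1 kept in sdg8 and with the actin difference as a covariate, and to 2 with the filter at the 50th percentile. AT5G20790, on the phosphate starvation list, had a difference of -2.78 that rested on sdg8 replicate 2 (1.94, against 6.85 and 7.07): without that array it was -1.10 (adjusted p = 0.000592).

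Chloroplast genes differed in both directions. PORB encodes an enzyme that makes chlorophyllide in the light. It read 10.74, 10.62 and 10.77 in sdg8, 12.15, 12.26 and 12.17 in hub2, with wild type at 11.59, 11.52 and 11.75. The mutants lay on opposite sides of wild type, with a difference of -1.48 (SE 0.08, adjusted p = 8.29e-11). LHCB4.2, an antenna protein gene of photosystem II, had the same order, at 11.24, 11.32 and 11.03 in sdg8, 12.51, 12.35 and 12.43 in hub2, with wild type at 11.52, 11.57 and 11.74. Its relatives differed from it: LHCB4.3 stood at -0.62 (-0.33 and not called with only replicate 1 kept in sdg8), and LHCB4.1 at 0.30, a call that was lost in 7 alternatives. CHLI2, for a magnesium chelatase subunit, was higher in sdg8 at 0.52 (0.50 and not called with only replicate 1 kept in sdg8). Of 8 chlorophyll synthesis genes, 1 was thus higher and 1, PORB, lower (7.34% and 8.73% over all probe sets tested), and 6 were not called. Of 67 plastid-encoded genes, 7 were higher in sdg8 and 0 lower, with a median of 0.26. A share near the 7.34% of all tested probe sets is no result about these genes. The values of cemA (0.96) and psaA (1.16) both lost their calls with only replicate 1 kept in sdg8. psaA read 9.37, 9.36 and 9.68 in sdg8 and 8.89, 7.08 and 8.97 in hub2, so that its value rested on hub2 replicate 2, and without that array it was 0.54 (adjusted p = 0.0658). The plastid count was 1 without the variance trend and 0 with only replicate 1 kept in sdg8, and came to 15 with the actin covariate, 13 without sdg8 replicate 1 and 12 without hub2 replicate 2.

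Other families split between their members. The glutaredoxin genes GRXC1 and GRXC2 encode related redox proteins and differed in opposite directions. GRXC1 read 8.66, 8.85 and 8.86 in sdg8, 7.12, 7.76 and 7.71 in hub2, with wild type at 8.59, 9.01 and 8.68, a difference of 1.26 with hub2 as the low group. GRXC2 read 11.22, 11.25 and 11.28 in sdg8, 12.27, 12.58 and 12.20 in hub2, with wild type at 12.31, 12.15 and 12.23, a difference of -1.10 with sdg8 as the low group. Of 10 autophagy genes, 3 were lower in sdg8 (8.73% over all probe sets tested): ATG8D at -0.89, ATG8B at -0.86 and ATG8G at -0.76, all of the family that marks autophagosome membranes. ATG8G lost its call in 5 alternatives, at -0.53 (adjusted p = 0.0902) without hub2 replicate 2, -0.63 without sdg8 replicate 2 and -0.50 with only replicate 1 kept in sdg8. The other 7, 6 of them of that family by name, lay between -0.23 and 0.08 and were not called. Of 9 RALF peptide genes, 5 were higher in sdg8 (7.34% over all) and 0 lower, by 0.88 for RALFL27 down to 0.26 for RALFL34, and 3 of them were called in each of 5 alternatives, among them the fit of only the 6 mutant arrays. Of 13 glutathione transferase genes, GSTU25 (1.17) and GSTU22 (0.64) were higher and 11 were not called, a share near the 16.1% over all probe sets. HTB4 was the 1 called member of 6 histone genes, again near the share over all probe sets, at -0.54, with hub2 above wild type (adjusted p = 0.0173) and sdg8 at its level.

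**Figure D3:**
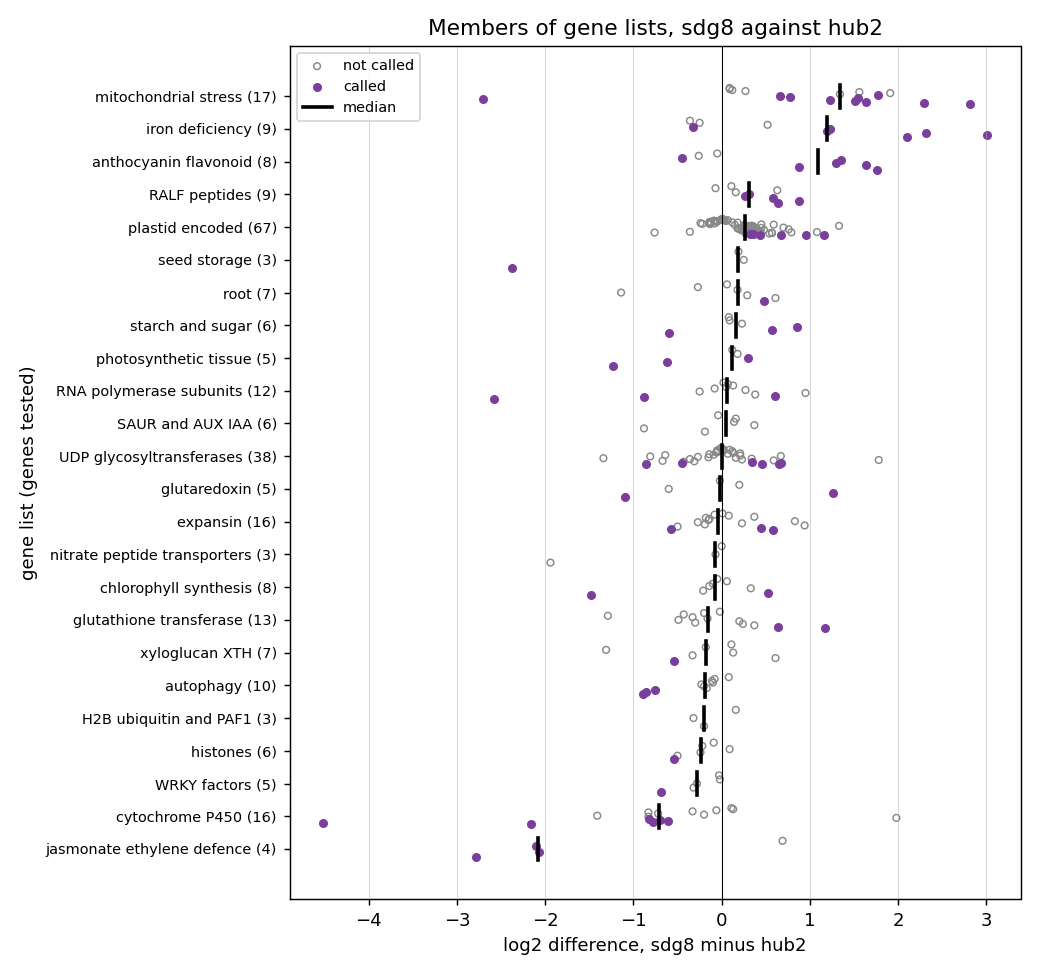
Log2 difference, sdg8 minus hub2 (horizontal), for each tested gene of the lists with at least 3 tested genes (number in brackets). Filled points were called, open points were not, and black bars are list medians, which run from 1.34 for mitochondrial stress to -2.08 for the jasmonate and ethylene list of 4 genes.

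Tissue markers were read against the 16.1% called over all probe sets. Named probe sets covered 7 of 20 root genes written, 5 of 28 photosynthetic genes and 6 of 20 seed genes, so most of each list was not read. Of 7 root-expressed genes, AT5G17820 was higher in sdg8 than in hub2 (0.48, and 0.45 and not called with only replicate 1 kept in sdg8) and 6 were not called. Against wild type AT5G17820 stood at -0.01 in sdg8 and at -0.49 in hub2 (adjusted p = 0.0162), so hub2 was the low group. The summed intensity of the 7 genes was 3209 to 3754 in sdg8 and 2560 to 3096 in hub2, against 3579 to 4006 in wild type. Of 5 photosynthetic genes, the 3 LHCB4 genes above were called, 1 higher and 2 lower. With only replicate 1 kept in sdg8 these counts were 0 and 1, and without hub2 replicate 2 or sdg8 replicate 2 none was called higher. For all 5, the summed intensity was 67360 to 79440 in sdg8 and 64760 to 72400 in hub2, against 56910 to 63040 in wild type. Of 6 named seed storage and oil body genes 3 were tested, and PAP85, a vicilin-type storage protein gene, was lower in sdg8 than in hub2 (-2.38, SE 0.47). Against wild type PAP85 was called in neither mutant (-1.28 in sdg8, adjusted p = 0.071, and 1.10 in hub2, adjusted p = 0.259). The summed intensity of all 6 was 126.9 to 206.4 in sdg8 and 230.0 to 285.8 in hub2, against 159.2 to 180.6 in wild type, and 3 of them had means in the background range. No marker was listed at 0. The part of root and seed tissue in the other differences was not tested.

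In some genes the mutants departed from wild type in opposite directions. The 3 wild-type arrays lay between all sdg8 and all hub2 arrays for 214 probe sets with sdg8 highest (1.18% of those tested), of which 202 were called (1.11%), and for 249 with sdg8 lowest (1.37%), of which 233 were called (1.28%). The called counts reached 303 and 325 when 1 array was left out, since fewer arrays overlap less often. The 3 iron genes, both CAP genes and AT1G43590 led the first order, and AT2G41120, AT1G09500, AT1G62290, PDF1.2b, AT3G28220 and AT3G60420, a gene of the phosphoglycerate mutase family, led the second. The sides were unequal. BHLH101 stood at 2.44 against wild type in sdg8 and at -0.58 in hub2 (adjusted p = 0.0605). PR-1-LIKE was near symmetric, at 1.23 and -1.20. AT2G41120 stood at -2.63 against wild type in sdg8 and at 0.42 in hub2 (adjusted p = 0.302). Both sides were called for PR-1-LIKE, AT2G19970, AT1G47400, AT5G05250, PDF1.2b and AT3G28220, and only the sdg8 side for the other 6.

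**Figure D4:**
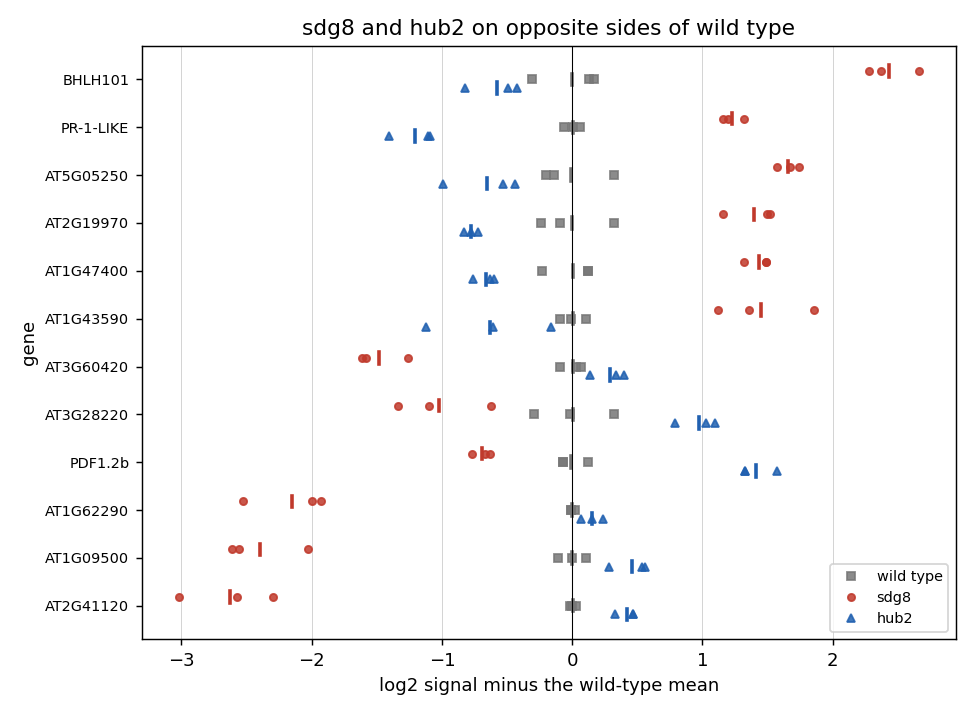
Log2 signal minus the wild-type mean (horizontal) in each array for the 12 genes with the largest differences among those where wild type lies between the mutants. Red circles are sdg8, blue triangles hub2 and grey squares wild type, with bars at the means of 3 arrays. The upper 6 genes have sdg8 on the right and hub2 on the left, and the lower 6 the reverse.

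Other genes departed from wild type in both mutants with no called difference between them. Both comparisons use the same wild-type arrays, so these values are not independent. AT1G67865 was 1.01 above wild type in sdg8 and 1.10 in hub2, and the direct difference was -0.09 with a 95% interval of -0.34 to 0.16. AT4G33550, a lipid transfer protein gene, was 0.76 and 0.91 above wild type (interval of the direct difference -0.39 to 0.08). AT2G41090, for a calmodulin-like protein, was 0.96 and 0.75 above it (-0.01 to 0.43), and ECS1, for a cell wall protein, 1.03 and 0.73 (0.08 to 0.53, adjusted p = 0.0594). Among genes below wild type in both, the peroxidase gene AT4G26010 read 9.69, 9.42 and 9.31 in sdg8, 9.64, 9.13 and 9.69 in hub2, with wild type at 10.51, 10.52 and 10.62. Its direct difference was -0.01, with an interval of -0.29 to 0.27. AT2G36690, a dioxygenase gene, differed by -0.19 (-0.57 to 0.19), AT5G26200, of the mitochondrial carrier family, by -0.08 (-0.65 to 0.48) and AT5G50335 by 0.03 (-0.56 to 0.62).

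Positions were compared by gene order alone. Of 3878 pairs of adjacent protein-coding genes that were both tested, 96 (2.48%) had both members called. In 64 of these both differed in the same direction, 26 pairs higher and 38 lower in sdg8, and in 32 the directions were opposite. The 16.1% called is a share of single probe sets, not of pairs, and no share expected for pairs was worked out. Nothing about position is therefore read from these counts. In 3 pairs both genes were at least 2-fold lower in sdg8. AT1G65490 and AT1G65500 stood at -1.75 and -1.73, SAG101, a lipase-like defence gene, and AT5G14940 at -1.29 and -1.32, and AT3G51440 and AT3G51450 at -1.51 and -1.23. These pairs were named after their values were seen, and probe sets of related neighbours can share signal.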

How the data were processed

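Expression was measured on Affymetrix 3' arrays. The authors deposited linear intensities, made with MAS5 and affy per the submitters' processing notes, versions not given in the sources used here. The deposited arrays share a mean, trimmed by 2% at each end, of 500.1 intensity units. Intensities were raised to 1.18 (1st percentile) and taken as log2. Control probe sets (64 of 22810) and probe sets at or below the 20th percentile of mean log2 signal (18.6 intensity units, "near the background") were left out. limma 3.58.1 (R 4.3.3) fitted group means to all 12 arrays with an intensity trend. P-values are two-sided, adjusted by Benjamini-Hochberg over 18196 probe sets, and "called" is an adjusted p under 0.05. The procedure was tested on simulated data. The number of arrays limits the precision.

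Names came from the platform annotation, updated through RefSeq (TAIR10.1). Of the 22810 probe sets 13513 have 1 symbol, 503 several and 8794 none, and 13436 matched RefSeq. Named genes are the 14 highest and 14 lowest called differences with 1 symbol, a higher mean above the median of tested probe sets (7.90) and no overlap between sdg8 and hub2 arrays. To these were added the 6 largest differences in each order with wild type between the mutants, the 4 highest and 4 lowest genes called against wild type in both mutants but not between them, and list members. Each gene counts once per list, by its brightest probe set. Of 47 lists, 24 had at least 3 tested genes. In the lists written by gene code, 78 of 380 entries had a probe set named for that gene alone, and the rest were not read. Plastid genes were taken by RefSeq chromosome, since RefSeq uses other codes, and a peroxiredoxin gene matched by the peroxidase name pattern was removed. Members and lists were chosen with earlier results of these data known. Planned promoter motif searches were not run.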

Additional observations from a re-analysis of the deposited data

Results flagged for a closer look

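Among the called probe sets where the 3 sdg8 arrays and the 3 hub2 arrays all lay on opposite sides of all 3 wild-type arrays (202 with sdg8 highest and 233 with sdg8 lowest), the 6 genes with the largest differences in each order were singled out. They were chosen by these differences, which are therefore given as a description with no test. On the log2 scale (sdg8 minus hub2) it was 3.01 for BHLH101, 2.43 for PR-1-LIKE, 2.31 for AT5G05250, 2.17 for AT2G19970, 2.10 for AT1G47400 and 2.08 for AT1G43590. It was -3.06 for AT2G41120, -2.86 for AT1G09500, -2.31 for AT1G62290, -2.10 for PDF1.2b, -2.0 for AT3G28220 and -1.78 for AT3G60420.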

How the results depend on the processing

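The count of 2925 called probe sets lay between 2159 and 2770 when 1 array of wild type, sdg8 or hub2 was left out, and was 1203 with only replicate 1 kept in sdg8, where that array is assumed to have the spread of the other groups. The count at 2-fold or more, 512, was 478 to 581 with 1 array left out, 172 on the log2(intensity + 64) scale and 236 with the filter at the 50th percentile, where fewer low probe sets are tested. The share of higher among called probe sets, 45.7%, was 41.7% to 46.5% with 1 array left out, 54.8% with median centring, 49.0% with the 50th percentile filter, 42.2% without the variance trend and 36.2% with only replicate 1 kept in sdg8. List genes called were 80 of 295 tested, where 16.1% of all probe sets tested were called, and 68 to 79 with 1 array left out. The lists were chosen with earlier results of these data known, so this count is no independent evidence. The counts against wild type were added after the data were seen: 2598 for sdg8 against wild type (1768 to 2862 with 1 array left out, 1110 with only replicate 1 kept in sdg8) and 519 for hub2 against wild type (210 to 554, 127 without the variance trend, 835 with array weights and 233 with the actin covariate; 332 and 338 without hub2 replicates 2 and 3, and 210, 294 and 247 without wild-type replicates 1, 2 and 3). The cause of these shifts was not tested. Of the 28 genes with the largest differences, 27 were called under all 21 alternatives in which they were tested, and AT5G20790 was not called without the variance trend (adjusted p = 0.136) or in the robust fit (0.159). Of all 77 called genes followed, 50 were called throughout and 0 changed sign. With the replicate block 2834 probe sets were called (517 at 2-fold or more), and 2486 and 448 in sdg8 and hub2 against wild type. The same-numbered arrays did not deviate together (correlations of -0.127 to 0.036 over 18 pairs), so the numbers were not taken as pairs. PAP85 stood at -1.65 without sdg8 replicate 3.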
